A study of Mus musculus with 92 samples.

Results

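The 38 genes described here carry out or time the copying of DNA, and they were taken by symbol from a table of 29956 named mouse genes. They cover origin licensing and the replicative helicase (Mcm2, Mcm3, Mcm4, Mcm5, Mcm6, Mcm7, Mcm10, Cdc6, Cdt1, Gins1, Gins2, Cdc45), the sliding clamp and its loader (Pcna, Rfc2, Rfc3, Rfc4, Rfc5), polymerases and primase (Pola1, Pola2, Prim1, Prim2, Pold1, Pole) and nucleotide supply (Rrm1, Rrm2, Tyms, Tk1, Dut). The others are flap, ligation and single-strand binding genes (Fen1, Lig1, Rpa2), chromatin genes (Uhrf1, Chaf1a, Chaf1b, Slbp) and genes of G1/S control (Ccne1, Ccne2, E2f1). All 38 passed the filter on low values in each of the 25 comparisons.

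The study used bulk RNA sequencing to compare mouse myeloid cells made from bone marrow (BM) with ER-Hoxb8 cells, progenitors held in an immature state by an estrogen-dependent Hoxb8 and released to become macrophages when estradiol is withdrawn. It also asked what loss of Adar, an RNA-editing enzyme, does to ER-Hoxb8 cells, and whether baricitinib, an inhibitor of JAK kinases, alters that. The 92 libraries hold 25 groups. Each value is the log2 of counts per M (CPM) plus a small offset, estimated depth was 6.1 to 49.0 M counts per library (median 21.3), and a gene with no counts has the lowest value of its column.

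BM progenitors, BM monocytes and BM-derived (BMD) macrophages came from wild-type FVB mice, 3 libraries each (BMD macrophage replicate 3 has wBM in its name, the others Mac). ER-Hoxb8 progenitors, cells at day 4 of differentiation and day 7 macrophages, 3 libraries each, came from FVB mice heterozygous for Cas9. BMD MLCs and ER-Hoxb8 MLCs (microglia-like cells), 6 libraries each, were labelled wild type. They were sorted back out of Csf1r knockout brains that had received BM or ER-Hoxb8 cells. CD45 and CD11b were stained. The gating figure that the paper cites for these libraries starts from live, single, leukocyte and GFP events. The flow histogram that it serves was drawn for cells positive for CD45 and CD11b. A further 9 libraries of microglia came from wild-type FVB mice that had no injection (replicates 1 to 7 named WT, 8 and 9 YSWT). Ages were not given in the labels. In the paper, hosts were injected as newborn pups and harvested within weeks, and the microglia came from age-matched wild-type mice. Library names of the ER-Hoxb8 MLCs start with GFPHox in replicates 1 to 3. In replicates 4 to 6 they start with WTHox and end in Lo. The labels do not say what these names mean. All edited cells were Cas9-heterozygous ER-Hoxb8 cells transduced with a guide: Adar KO with sgRNA 1 (3 progenitor and 3 macrophage libraries), NTC, the non-targeting control (3 and 3), and Adar KO with sgRNA 2 (3 and 5). Macrophages had been grown for 7 days in M-CSF. The baricitinib groups were NTC and Adar KO sgRNA 1 macrophages at 0, 0.0006, 0.016, 0.4 and 10 uM, with 3, 3, 4, 4 and 3 NTC and 3, 3, 3, 3 and 4 Adar KO libraries. Those doses are the ones in the sample labels, while the treatment protocol gives 0.00064 in place of 0.0006 and 0.16 in place of 0.016. The paper describes replicates of the baricitinib cultures as differentiated independently. Labels do not say whether replicates of a guide came from separately edited cells. Calls between KO and NTC may thus measure spread between cultures, and an effect of the guide cannot be told from a difference between lines.

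Libraries fall into 6 sets that share one lowest value, and levels of members were compared only inside a set. Marker sums, and the member mean of NTC macrophage replicate 2, are listed beside those of other sets without a test. Set 1 holds the BM progenitors, BM monocytes, ER-Hoxb8 progenitors and day 4 cells (lowest value -4.34, depth 34.4 to 49.0 M), and set 2 the day 7 macrophages and brain cells (lowest value -3.62, depth 8.6 to 43.3 M). The sgRNA 1 and NTC libraries make set 3 (-3.43, 17.2 to 41.9 M), the sgRNA 2 libraries set 5 (-3.56, 18.5 to 27.2 M) and the baricitinib libraries set 6 (-2.78, 6.1 to 34.2 M). NTC macrophage replicate 2 has a lowest value of its own (-3.09, 19.6 M). It therefore enters no comparison, and NTC macrophages count 2 libraries. Its member mean was 3.05, beside 3.01 and 3.20 in the others.

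Before S phase, licensing factors load the MCM helicase onto origins, and the firing of origins by kinases turns it into an active fork that polymerases, clamp and loader follow while ribonucleotide reductase and the thymidylate enzymes supply deoxynucleotides. Transcription of most of these genes rises at the G1/S boundary through E2F factors, which the Rb proteins hold back until cyclin-dependent kinases release them. Macrophages that mature under M-CSF divide for some time and then leave the cell cycle, and microglia of a healthy adult brain divide rarely. The microglia here came from younger mice, matched in age to hosts injected as newborn pups.

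Start windows were at hand for 31 of the 38 members in RefSeq (build GRCm38.p6, from 250 bases before to 50 after a start, 36 windows). E2F words (TTTCCCGC, TTTGGCGC, TTTCGCGC or TTTGCCGC on either strand, overlaps counted) stood in 11 of those windows (30.6%) and in 2.26% of all 32851 windows. The word CCAAT stood in 52.8% against 37.4%, and the CHR word TTTGAA in 8.33% against 17.9%. A listed start need not be the main one. 6 windows hold coding sequence of their gene (GENCODE M21), that of E2f1 188 bases, so it is not read as a promoter. Those of Mcm5, Mcm6 and Cdc6 are shown, as genes that fall in maturing macrophages, with E2F words in capitals.
Mcm5 (chr8:75109259-75109558, strand +): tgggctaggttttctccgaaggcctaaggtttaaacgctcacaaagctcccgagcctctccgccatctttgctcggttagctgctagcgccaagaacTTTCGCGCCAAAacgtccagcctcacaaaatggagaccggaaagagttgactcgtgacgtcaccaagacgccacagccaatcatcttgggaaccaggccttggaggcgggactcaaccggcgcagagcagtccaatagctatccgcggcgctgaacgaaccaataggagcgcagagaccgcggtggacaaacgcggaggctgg
Mcm6 (chr1:128359656-128359955, strand -): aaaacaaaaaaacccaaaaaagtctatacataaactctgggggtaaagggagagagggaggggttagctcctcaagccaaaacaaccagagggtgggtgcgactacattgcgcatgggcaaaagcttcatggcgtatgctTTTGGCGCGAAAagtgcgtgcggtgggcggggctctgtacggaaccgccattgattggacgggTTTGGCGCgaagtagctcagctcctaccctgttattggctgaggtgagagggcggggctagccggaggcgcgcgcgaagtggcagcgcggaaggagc
Cdc6 (chr11:98907901-98908200, strand +): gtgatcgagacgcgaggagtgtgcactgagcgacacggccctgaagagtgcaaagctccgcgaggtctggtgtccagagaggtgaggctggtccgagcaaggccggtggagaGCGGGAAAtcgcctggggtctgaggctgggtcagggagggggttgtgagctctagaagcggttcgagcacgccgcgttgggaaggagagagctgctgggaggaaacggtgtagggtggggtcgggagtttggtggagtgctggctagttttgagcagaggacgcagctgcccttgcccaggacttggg

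Mcm6 has 3 of these words, Mcm5 2 and Cdc6 1 in these windows. A word is a match of letters and says nothing of binding. No entry was found for Mcm4, Gins1, Gins2, Rfc2, Prim2, Pole and Ccne2.

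Several libraries stood apart from their group. Microglia replicate 8 had a member mean of 1.32, against 2.90 to 3.41 in the other microglia, and differed from their mean by 1.99 per gene (others 0.5 to 0.85). It also held the highest sums over astrocyte (665 CPM, most abundant gene Slc1a3) and neuron markers (39.8 CPM, Tubb3) of all libraries. Adar KO 0.4 uM replicate 2 had a member mean of 4.36, against 6.00 and 5.97 in replicates 1 and 3, and an Adar value of 7.38 against 4.12 and 4.21. The 3 ER-Hoxb8 progenitor libraries spread widely, with member means of 4.42, 5.36 and 6.92. BMD macrophage replicate 2 (3.96, others 5.77 and 6.48) and ER-Hoxb8 macrophage replicate 3 (3.74, others 5.79 and 5.32) were low in their groups.

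Marker genes were summed in CPM per library to check the labelled cell types. Macrophage markers (7 genes, most abundant Lyz2) reached 40913 to 59698 CPM in BMD macrophages and 58074 to 67181 CPM in ER-Hoxb8 macrophages, and 457 to 1046 CPM in NTC progenitors. They measured 15871, 58836 and 620 CPM in the 3 ER-Hoxb8 progenitor libraries, so replicates 1 and 2 of that group carry macrophage markers that BM progenitors (774 to 2186 CPM) hold at a far lower level. Progenitor markers (5 genes) summed to 260 to 475 CPM in BM progenitors, with Kit most abundant, 12 to 33.4 CPM in ER-Hoxb8 progenitors and 26.9 to 51.5 CPM in NTC progenitors. Neutrophil markers (9 genes) reached 4436 to 33053 CPM in BMD MLCs, 238 to 41195 CPM in ER-Hoxb8 MLCs, both with Ngp most abundant, and 407 to 5894 CPM in microglia.

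Microglia markers (5 genes) summed to 45343 to 74002 CPM in microglia, 5034 to 16736 in BMD MLCs and 827 to 9620 in ER-Hoxb8 MLCs. Called lower than in microglia were 4 of 5 in BMD MLCs and 5 of 5 in ER-Hoxb8 MLCs. Cultured macrophages held 445 to 876 (BMD) and 240 to 712 CPM (ER-Hoxb8). Against these, 5 of 5 were called higher in BMD MLCs and 4 of 5 in ER-Hoxb8 MLCs. Their part was not tested. The other marker lists given here were lower or local. Erythroid markers (8 genes) ran from 0.469 to 7767 CPM over all libraries, highest in microglia replicate 5, and B cell markers (7 genes) reached 1396 CPM in BM progenitor replicate 2. T and NK cell markers (5 genes) reached 538 CPM in ER-Hoxb8 MLC replicate 6. Endothelial markers (5 genes, Flt1 most abundant over all libraries) reached 237 CPM in Adar KO 0.4 uM replicate 2. A sum over such a list does not by itself show that cells of that type were present. Bulk values do not tell fewer cells of a type from less RNA per cell.

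Within each set that held progenitors, the mean over the 38 members was higher in them than in the cells derived from them. ER-Hoxb8 progenitors and day 4 cells were the exception, and overlapped. As mean ± SD over the libraries of a group, BM progenitors stood at 7.38 ± 0.10, BM monocytes at 6.53 ± 0.13, ER-Hoxb8 progenitors at 5.57 ± 1.26 and ER-Hoxb8 day 4 cells at 6.03 ± 0.69. In set 2 the order, from the highest, was BMD macrophages at 5.40 ± 1.30, ER-Hoxb8 macrophages at 4.95 ± 1.07, ER-Hoxb8 MLCs at 4.54 ± 0.56, BMD MLCs at 3.66 ± 0.30 and microglia at 2.92 ± 0.62, and neighbours in that order overlapped. In the edited cells the stages lay far apart. NTC progenitors measured 6.76 ± 0.05, Adar KO sgRNA 1 progenitors 6.68 ± 0.04, Adar KO sgRNA 1 macrophages 4.43 ± 0.09 and NTC macrophages 3.10 ± 0.13. Adar KO sgRNA 2 progenitors measured 6.97 ± 0.02 and their macrophages 5.21 ± 0.06.

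**Figure D1:**
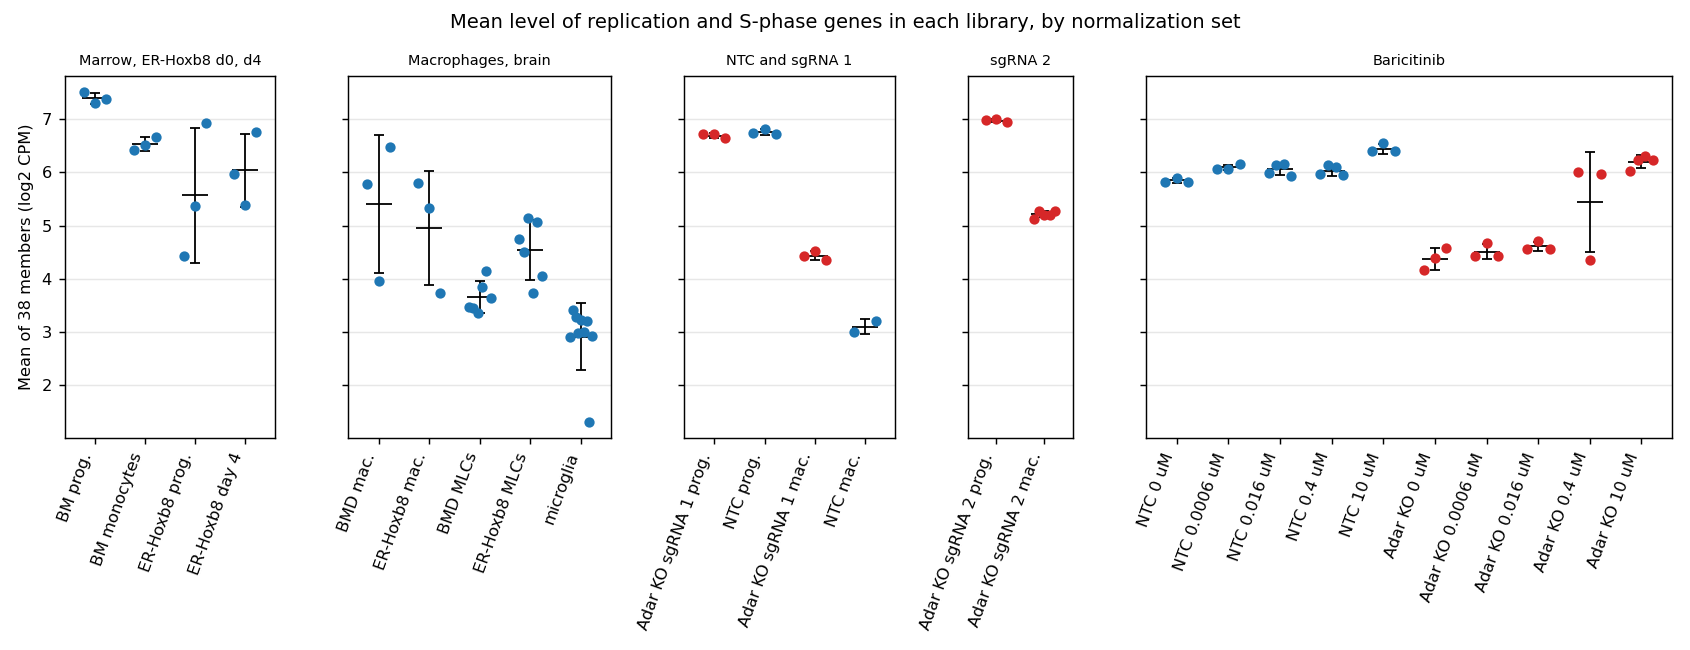
Mean log2 CPM of the 38 members in each library (points), with group mean and SD (bars), in panels by normalization set, blue for unedited and NTC cells and red for Adar KO. The y axis is log2 CPM, and levels should be read only within a panel. Microglia replicate 8 lies at 1.32 and Adar KO 0.4 uM replicate 2 at 4.36, below the rest of their groups.

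The first question is how far immortalized progenitors resemble those of marrow. Members were called lower in ER-Hoxb8 than in BM progenitors, in numbers that changed with each library left out, the filter and the groups fitted, and the 3 ER-Hoxb8 libraries were far apart. BM monocytes lay below BM progenitors for most members without a single call, and day 4 cells overlapped their progenitors for all 38 and for all but 6.93% of all genes. Single genes follow by role, as log2 CPM per library in the order of replicates.

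Mcm2, a subunit of the MCM helicase, measured 10.37, 9.62 and 9.70 in BM progenitors, 8.53, 8.47 and 8.18 in BM monocytes, 7.06, 7.00 and 9.28 in ER-Hoxb8 progenitors and 7.73, 7.03 and 8.44 in day 4 cells. Mcm5, another MCM subunit, measured 5.74, 5.66 and 5.86 in BM progenitors, 4.94, 5.53 and 5.70 in BM monocytes, 2.59, 4.09 and 5.86 in ER-Hoxb8 progenitors and 4.42, 3.77 and 5.36 in day 4 cells. Cdc6, which loads the helicase at origins, measured 8.80, 8.40 and 8.60 in BM progenitors, 6.90, 6.98 and 7.12 in BM monocytes, 3.92, 5.02 and 7.54 in ER-Hoxb8 progenitors and 5.64, 4.99 and 6.66 in day 4 cells. Mcm2 and Cdc6 were lower in all BM monocytes than in all BM progenitors, and Mcm5 overlapped. Mcm2 and Cdc6 were lower in all ER-Hoxb8 than in all BM progenitors, and Mcm5 overlapped. Ranges in BM and ER-Hoxb8 progenitors were 6.69 to 7.34 and 3.34 to 6.84 for Mcm10 (which helps to activate the helicase), 4.00 to 4.16 and 0.88 to 3.51 for Cdt1 (the partner of Cdc6 in loading), 6.89 to 7.33 and 4.43 to 7.12 for Gins2 (a GINS subunit of the active helicase), and 6.23 to 6.32 and 4.05 to 6.38 for Cdc45 (which joins MCM and GINS). Cdt1 was lower in all ER-Hoxb8 than in all BM progenitors, and Mcm10, Gins2 and Cdc45 overlapped.

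Pcna, the sliding clamp, measured 8.91, 8.95 and 8.98 in BM progenitors, 7.98, 8.22 and 8.50 in BM monocytes, 6.93, 7.25 and 8.54 in ER-Hoxb8 progenitors and 8.20, 7.39 and 8.84 in day 4 cells. Pola1, the catalytic subunit of polymerase alpha, measured 7.31, 6.85 and 7.24 in BM progenitors, 6.74, 6.73 and 6.02 in BM monocytes, 4.03, 5.28 and 6.61 in ER-Hoxb8 progenitors and 5.78, 5.24 and 6.78 in day 4 cells. Pcna and Pola1 were lower in all BM monocytes and all ER-Hoxb8 progenitors than in all BM progenitors. Ranges in BM and ER-Hoxb8 progenitors were 6.82 to 7.03 and 3.40 to 6.54 for Prim1 (the catalytic subunit of primase), and 5.83 to 6.29 and 1.91 to 4.68 for Pole (the catalytic subunit of polymerase epsilon). Prim1 and Pole were lower in all ER-Hoxb8 than in all BM progenitors. Rrm2, the small subunit of ribonucleotide reductase, measured 10.84, 10.45 and 10.26 in BM progenitors, 9.34, 9.55 and 9.21 in BM monocytes, 5.62, 7.57 and 10.66 in ER-Hoxb8 progenitors and 8.58, 7.57 and 10.02 in day 4 cells. Tyms, thymidylate synthase, measured 8.09, 7.91 and 7.83 in BM progenitors, 7.20, 7.40 and 7.60 in BM monocytes, 5.97, 5.46 and 7.68 in ER-Hoxb8 progenitors and 6.10, 5.68 and 7.50 in day 4 cells. Rrm2 and Tyms were lower in all BM monocytes than in all BM progenitors. Tyms was lower in all ER-Hoxb8 than in all BM progenitors, and Rrm2 overlapped. Ranges in BM and ER-Hoxb8 progenitors were 9.35 to 9.98 and 6.60 to 9.25 for Rrm1 (the large subunit), 7.36 to 7.59 and 2.81 to 6.60 for Tk1 (the cytosolic thymidine kinase), and 4.10 to 4.70 and 0.90 to 3.69 for Dut (the dUTPase). Rrm1, Tk1 and Dut were lower in all ER-Hoxb8 than in all BM progenitors.

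Uhrf1, which brings DNA methyltransferase to new DNA, measured 8.52, 8.48 and 8.58 in BM progenitors, 7.91, 7.22 and 7.69 in BM monocytes, 4.96, 6.35 and 7.86 in ER-Hoxb8 progenitors and 7.09, 6.22 and 7.67 in day 4 cells. Uhrf1 was lower in all BM monocytes and all ER-Hoxb8 progenitors than in all BM progenitors. Ranges in BM and ER-Hoxb8 progenitors were 8.11 to 8.32 and 3.70 to 7.17 for Lig1 (the ligase of Okazaki fragments), 9.47 to 10.18 and 7.53 to 9.61 for Fen1 (the flap endonuclease), 4.93 to 5.26 and 2.25 to 4.65 for Chaf1a (the large subunit of the histone chaperone CAF), and 9.87 to 10.03 and 7.74 to 8.96 for Slbp (which binds the stem-loop of histone mRNA). Lig1, Chaf1a and Slbp were lower in all ER-Hoxb8 than in all BM progenitors, and Fen1 overlapped. E2f1, a transcription factor of S-phase entry, measured 2.85, 3.56 and 3.66 in BM progenitors, 4.25, 3.89 and 4.58 in BM monocytes, 5.31, 4.87 and 3.69 in ER-Hoxb8 progenitors and 5.61, 4.97 and 4.51 in day 4 cells. Ccne2, a cyclin E that activates Cdk2, measured 7.36, 7.67 and 7.45 in BM progenitors, 6.52, 7.02 and 6.97 in BM monocytes, 3.43, 5.02 and 7.39 in ER-Hoxb8 progenitors and 6.31, 5.46 and 7.85 in day 4 cells. Ccne2 was lower in all BM monocytes than in all BM progenitors, and E2f1 was higher. E2f1 was higher in all ER-Hoxb8 than in all BM progenitors, and Ccne2 overlapped. Ranges in BM and ER-Hoxb8 progenitors were 4.16 to 4.52 and 1.41 to 3.96 for Ccne1 (the other cyclin E). Ccne1 was lower in all ER-Hoxb8 than in all BM progenitors.

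The limma fit called 24 members lower in ER-Hoxb8 than in BM progenitors and 0 higher (limma adjusted p 0.00267 to 0.0424), beside 11.3% of all genes higher and 14.2% lower, and the median log2FC of the 38 was -1.82, against -0.08 over all 12056 genes. By role, 6 of 12 licensing and helicase, 4 of 5 clamp and loader, 5 of 6 polymerase and primase, 3 of 5 nucleotide supply, 2 of 3 flap, ligation and single-strand binding, 4 of 4 chromatin and 0 of 3 G1/S control genes were lower. Log2FC, the difference of group means on the deposited log2 scale (± SE), ran from Cdc6 (-3.11 ± 0.72), Lig1 (-2.69 ± 0.70) and Pole (-2.54 ± 0.59) to Rfc3 (-1.38 ± 0.44), Pcna (-1.37 ± 0.43) and Rfc2 (-1.12 ± 0.30). None of the 24 overlapped between groups, as for 97.2% of all called genes. Called or not, 28 members and 37.8% of all genes did not overlap. Each library moved the count by over 1.5 times, to 10, 10 and 9 without BM progenitors replicate 1, 2 or 3, and 10, 15 and 38 without ER-Hoxb8 progenitors replicate 1, 2 or 3, and fitting the compared groups alone gave 8 and no filter on low values 9. Of the other lists, limma called 0 higher and 16 lower of 38 further replication genes (median -1.29), 1 higher and 2 lower of 11 genes of dNTP supply and removal (median -0.80), 0 higher and 5 lower of 18 G1 and E2F-Rb genes (median -0.61), 2 higher and 0 lower of 5 CDK inhibitors (median -0.03) and 0 higher and 2 lower of 13 mitosis genes (median -2.03). Markers of other lineages were lower in ER-Hoxb8 than in BM progenitors too, erythroid at 3.72 to 4.17 against 1938 to 4304 CPM, neutrophil at 53.4 to 4452 against 6891 to 24151, B cell at 2.46 to 21.7 against 277 to 1396 and T and NK cell at 0.812 to 1.06 against 201 to 417. Lower too were 4 of 4 progenitor and 3 of 4 endothelial markers. Of 7 macrophage markers, 4 were higher and 1 was lower, with the sums given above (high in replicates 1 and 2, whose member means were the low ones). The part of these lists was not tested.

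From BM progenitors to BM monocytes, limma called 0 members, with 9 at an unadjusted p under 0.05, beside 7.01% of all genes higher and 6.77% lower. Still, the median log2FC of the 38 was -0.79, against -0.09 over all 12056 genes, and 33 members, and 49.1% of all genes, did not overlap. The count was 29 when these groups were fitted without the ER-Hoxb8 libraries. Lower in monocytes too were erythroid (95.2 to 367 against 1938 to 4304 CPM, 8 of 8 called lower) and B cell markers (67 to 94.6 against 277 to 1396 CPM, 6 of 7 called lower). Sums were also lower over progenitor (81 to 146 against 260 to 475 CPM) and T and NK cell markers (79.2 to 152 against 201 to 417 CPM), with 0 called. Macrophage markers were higher (24446 to 28419 against 774 to 2186 CPM, 2 of 7 called higher). The part of these lists was not tested. Between ER-Hoxb8 progenitors and day 4 cells it called 0, with 0 at an unadjusted p under 0.05, beside 0% of all genes higher and 0% lower, and the median log2FC of the 38 was 0.43, against -0.01 over all genes. Macrophage markers already ran high in replicates 1 and 2 of those progenitors, and their part was not tested.

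**Figure D2:**
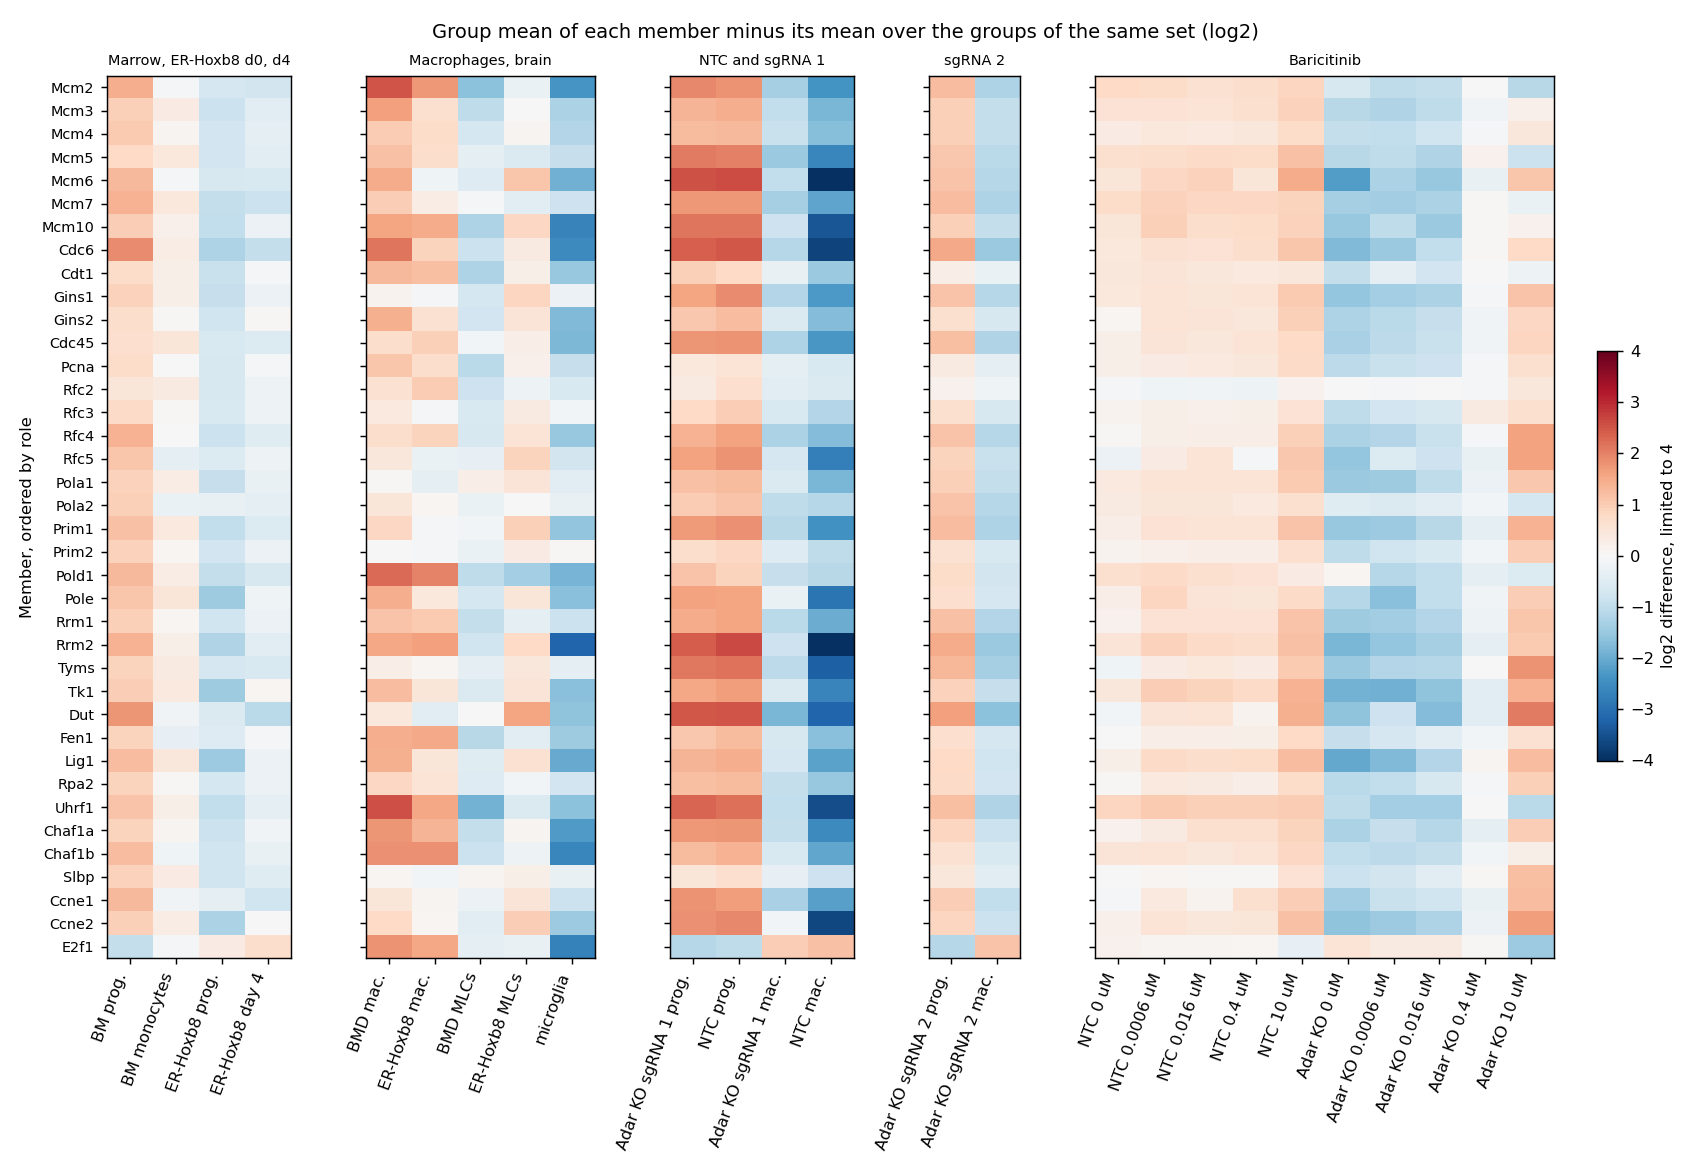
Group mean of each member minus its mean over the groups of the same set (log2), members by role from top to bottom, red higher and blue lower, colours limited to a difference of 4. Values should be read along a line inside a panel. Progenitors of marrow, NTC and Adar KO are red for every member but E2f1, while ER-Hoxb8 progenitors are blue for all but E2f1.

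The next comparisons ask how cells that engrafted a brain differ from the macrophages of the dish and from resident microglia. Many members were called higher in ER-Hoxb8 MLCs than in microglia, and fewer were called lower in BMD MLCs than in cultured BMD macrophages, groups whose member means overlapped. Single values are given in replicate order for groups of 3 and the range with the median for the brain groups.

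Mcm2 measured 7.70, 5.42 and 7.99 in BMD macrophages, 7.55, 6.92 and 4.32 in ER-Hoxb8 macrophages, 2.38 to 3.49 (median 2.82) in BMD MLCs, 2.49 to 5.87 (median 4.31) in ER-Hoxb8 MLCs and -2.83 to 4.01 (median 2.69) in microglia. Mcm5 measured 4.45, 1.62 and 5.07 in BMD macrophages, 4.42, 4.35 and 0.97 in ER-Hoxb8 macrophages, 1.21 to 2.77 (median 2.32) in BMD MLCs, 1.17 to 2.95 (median 2.08) in ER-Hoxb8 MLCs and -0.97 to 2.63 (median 1.77) in microglia. Cdc6 measured 5.83, 2.11 and 6.43 in BMD macrophages, 4.99, 4.46 and 1.16 in ER-Hoxb8 macrophages, -3.62 to 3.96 (median 2.58) in BMD MLCs, -3.62 to 5.27 (median 4.12) in ER-Hoxb8 MLCs and -2.26 to 1.91 (median 0.22) in microglia. Mcm2 was lower in all BMD MLCs than in all BMD macrophages, and Mcm5 and Cdc6 overlapped. Mcm2, Mcm5 and Cdc6 overlapped between ER-Hoxb8 MLCs and microglia. Ranges in microglia and ER-Hoxb8 MLCs were -2.26 to 0.90 and 1.46 to 5.44 for Mcm10, -3.62 to 2.78 and -0.23 to 3.77 for Cdt1, 0.41 to 4.61 and 3.41 to 6.73 for Gins2, and -3.62 to 2.43 and 2.11 to 4.01 for Cdc45. Mcm10 was higher in all ER-Hoxb8 MLCs than in all microglia, and Cdt1, Gins2 and Cdc45 overlapped.

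Pcna measured 8.64, 7.59 and 8.69 in BMD macrophages, 8.04, 7.69 and 7.89 in ER-Hoxb8 macrophages, 5.72 to 6.41 (median 6.14) in BMD MLCs, 6.80 to 8.15 (median 7.31) in ER-Hoxb8 MLCs and 5.64 to 7.47 (median 6.24) in microglia. Pola1 measured 4.89, 3.06 and 5.79 in BMD macrophages, 4.75, 4.24 and 3.39 in ER-Hoxb8 macrophages, 4.37 to 5.66 (median 4.73) in BMD MLCs, 4.51 to 5.86 (median 4.93) in ER-Hoxb8 MLCs and 3.24 to 5.42 (median 3.67) in microglia. Pcna was lower in all BMD MLCs than in all BMD macrophages, and Pola1 overlapped. Pcna and Pola1 overlapped between ER-Hoxb8 MLCs and microglia. Ranges in microglia and ER-Hoxb8 MLCs were -1.18 to 3.64 and 4.65 to 5.58 for Prim1, and -1.39 to 1.08 and -0.08 to 3.45 for Pole. Prim1 was higher in all ER-Hoxb8 MLCs than in all microglia, and Pole overlapped. Rrm2 measured 7.04, 4.95 and 9.21 in BMD macrophages, 8.66, 7.78 and 5.04 in ER-Hoxb8 macrophages, 2.91 to 5.89 (median 5.05) in BMD MLCs, 5.82 to 7.41 (median 5.93) in ER-Hoxb8 MLCs and -1.69 to 4.10 (median 2.51) in microglia. Tyms measured 6.47, 3.97 and 7.24 in BMD macrophages, 6.72, 6.25 and 4.11 in ER-Hoxb8 macrophages, 4.44 to 6.14 (median 5.36) in BMD MLCs, 4.86 to 7.21 (median 6.08) in ER-Hoxb8 MLCs and 4.57 to 6.21 (median 5.13) in microglia. Rrm2 and Tyms overlapped between BMD MLCs and BMD macrophages. Rrm2 was higher in all ER-Hoxb8 MLCs than in all microglia, and Tyms overlapped. Ranges in microglia and ER-Hoxb8 MLCs were 5.16 to 5.87 and 5.41 to 7.13 for Rrm1, 1.96 to 3.68 and 3.84 to 6.18 for Tk1, and -2.77 to 1.58 and 2.27 to 4.44 for Dut. Tk1 and Dut were higher in all ER-Hoxb8 MLCs than in all microglia, and Rrm1 overlapped.

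Uhrf1 measured 7.02, 3.51 and 8.02 in BMD macrophages, 6.77, 6.19 and 2.47 in ER-Hoxb8 macrophages, 1.06 to 3.18 (median 1.55) in BMD MLCs, -3.06 to 5.30 (median 4.29) in ER-Hoxb8 MLCs and 1.11 to 3.59 (median 1.87) in microglia. Uhrf1 was lower in all BMD MLCs than in all BMD macrophages. Uhrf1 overlapped between ER-Hoxb8 MLCs and microglia. Ranges in microglia and ER-Hoxb8 MLCs were -0.88 to 3.57 and 3.97 to 6.68 for Lig1, 2.73 to 5.86 and 4.97 to 7.29 for Fen1, -3.62 to 0.34 and 0.54 to 2.08 for Chaf1a, and 6.38 to 8.41 and 8.02 to 8.36 for Slbp. Lig1 and Chaf1a were higher in all ER-Hoxb8 MLCs than in all microglia, and Fen1 and Slbp overlapped. E2f1 measured 5.64, 5.49 and 5.26 in BMD macrophages, 5.50, 5.26 and 4.86 in ER-Hoxb8 macrophages, 2.36 to 3.84 (median 3.44) in BMD MLCs, 3.06 to 4.04 (median 3.26) in ER-Hoxb8 MLCs and -2.77 to 2.04 (median 1.31) in microglia. Ccne2 measured 5.55, 2.81 and 7.70 in BMD macrophages, 6.23, 5.42 and 2.28 in ER-Hoxb8 macrophages, 3.43 to 4.75 (median 4.32) in BMD MLCs, 3.82 to 6.81 (median 5.73) in ER-Hoxb8 MLCs and 1.77 to 4.40 (median 3.25) in microglia. E2f1 was lower in all BMD MLCs than in all BMD macrophages, and Ccne2 overlapped. E2f1 was higher in all ER-Hoxb8 MLCs than in all microglia, and Ccne2 overlapped. Ranges in microglia and ER-Hoxb8 MLCs were -1.34 to 1.70 and -0.17 to 2.45 for Ccne1. Ccne1 overlapped between ER-Hoxb8 MLCs and microglia.

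Between ER-Hoxb8 MLCs and microglia limma called 22 members higher and 0 lower (limma adjusted p 3.13e-05 to 0.0457), beside 15% of all genes higher and 18.9% lower, and the median log2FC of the 38 was 1.49, against -0.10 over all 12518 genes. By role, 7 of 12 licensing and helicase, 3 of 5 clamp and loader, 2 of 6 polymerase and primase, 3 of 5 nucleotide supply, 2 of 3 flap, ligation and single-strand binding, 2 of 4 chromatin and 3 of 3 G1/S control genes were higher. Log2FC ran from Rpa2 (0.67 ± 0.25), Pcna (1.10 ± 0.24) and Gins1 (1.11 ± 0.40) to Dut (3.20 ± 0.59), Mcm10 (3.49 ± 0.70) and Rrm2 (3.98 ± 0.72). Without microglia replicate 8 the count was 21, and 19 with the WT libraries of microglia alone, chosen after seeing the data, and 9 called members did not overlap, against 33.1% of all called genes. Called or not, 9 members and 11.3% of all genes did not overlap. Of the other lists, limma called 12 higher and 0 lower of 13 mitosis genes (median 2.87) and 13 higher and 1 lower of 38 further replication genes (median 0.84). It called 4 and 2 of 11 dNTP genes, 3 and 0 of 17 G1 and E2F-Rb genes and 2 and 1 of 6 CDK inhibitors. The largest changes there were in Ccnd2 (4.56 ± 0.55), Mki67 (4.51 ± 0.74), Birc5 (3.94 ± 0.65) and E2f8 (3.70 ± 0.62), where Ccnd2 is a D cyclin, Mki67 and Birc5 mark dividing cells and E2f8 represses E2F targets. BMD MLCs exceeded microglia for 4 members, Dut (1.64 ± 0.59), Chaf1b (1.76 ± 0.41), E2f1 (2.31 ± 0.50) and Rrm2 (2.37 ± 0.72) (limma adjusted p 0.0011 to 0.0499), and were lower for 0, beside 10.9% of all genes higher and 9.57% lower, and the median log2FC of the 38 was 0.71, against 0.06 over all genes. That count was 2 without BMD MLCs replicate 5 and 3 with the WT libraries of microglia. T and NK cell markers summed to 51.7 to 538 CPM in ER-Hoxb8 MLCs and 1.86 to 28.6 CPM in microglia (5 of 5 called higher), while 7 of 9 neutrophil markers were higher in BMD MLCs. Astrocyte markers summed to 167 to 665 CPM in microglia, 22.4 to 54.7 in ER-Hoxb8 MLCs and 10.3 to 16.9 in BMD MLCs, with Slc1a3 most abundant in each. Of 4 astrocyte markers tested, 1 was called higher and 1 lower than in microglia in ER-Hoxb8 MLCs, as in BMD MLCs. In ER-Hoxb8 MLCs 3 of 3 progenitor markers were lower. Their part was not tested.

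Compared with BMD macrophages, BMD MLCs had 17 members lower and 0 higher (limma adjusted p 1.93e-05 to 0.0438), beside 16.8% of all genes higher and 13.9% lower, and the median log2FC of the 38 was -1.76, against -0.01 over all 12518 genes. Log2FC ran from Uhrf1 (-4.47 ± 1.27), Mcm2 (-4.17 ± 1.04) and Pold1 (-3.29 ± 1.20) to Rfc2 (-1.45 ± 0.25), Rpa2 (-1.35 ± 0.33) and Rfc3 (-1.02 ± 0.38). The count was 8, 26 and 9 without BMD macrophages replicate 1, 2 or 3, and 11 of the called did not overlap, against 90.3% of all called genes. Called or not, 12 members and 43.3% of all genes did not overlap. BMD macrophages had far lower sums than BMD MLCs over neutrophil (3.39 to 39.8 CPM), erythroid (0.492 to 8.34 against 28.3 to 866 CPM) and T and NK cell markers (0.225 to 2.08 against 12.7 to 105 CPM), and their part was not tested. ER-Hoxb8 MLCs were lower than ER-Hoxb8 macrophages for 6 members and higher for 0, Pold1 (-3.34 ± 1.20), Chaf1b (-2.02 ± 0.54), Fen1 (-1.97 ± 0.54), E2f1 (-1.85 ± 0.67), Rrm1 (-1.42 ± 0.43) and Rfc2 (-1.23 ± 0.25) (limma adjusted p 0.000567 to 0.0333), beside 16.6% of all genes higher and 18.2% lower, and the median log2FC of the 38 was -0.51, against -0.15 over all genes. That count was 2 and 3 without ER-Hoxb8 macrophages replicate 1 or 2, and, in a choice made after seeing the data, 3 with the GFPHox libraries alone and 8 with the WTHox libraries alone. Sums over markers of T and NK cells (51.7 to 538 against 0.486 to 1.34 CPM, 5 of 5 called higher) and neutrophils (238 to 41195 against 32.3 to 75.5 CPM, 5 of 9 called higher) were higher in the MLCs. So were those of erythroid cells (231 to 7696 against 4.64 to 12.2 CPM, 4 of 6 called higher and 1 lower) and endothelium (44.8 to 99.9 against 6.98 to 30.1 CPM, 3 of 3 called higher). The part of these lists was not tested.

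ER-Hoxb8 MLCs exceeded BMD MLCs for 4 members, Rfc2 (0.61 ± 0.20), Rfc3 (0.98 ± 0.31), Pcna (1.27 ± 0.27) and Gins1 (1.57 ± 0.43) (limma adjusted p 0.00175 to 0.0427), and were lower for 0, beside 6.95% of all genes higher and 8.28% lower, and the median log2FC of the 38 was 1.05, against -0.22 over all 12518 genes. Centring each library moved the all-genes median to -0.08. The count was 2 and 2 without BMD MLCs replicate 1 or 2, and 2 without ER-Hoxb8 MLCs replicate 5, and 7 with only these groups fitted. ER-Hoxb8 MLCs had more of T and NK cell (51.7 to 538 against 12.7 to 105 CPM, 3 of 5 called higher) and endothelial markers (44.8 to 99.9 against 10.8 to 28.4 CPM, 2 of 3 called higher). They had less of progenitor markers (5.29 to 41.8 against 32.1 to 112 CPM, 2 of 3 called lower). Of 9 neutrophil markers 3 were called lower, and the sums overlapped. Those sums were 765, 238 and 331 CPM in the GFPHox libraries and 17911, 41195 and 3357 in the WTHox libraries. The part of these lists was not tested. Cultured ER-Hoxb8 and BMD macrophages differed for 0 members in limma, with 0 at an unadjusted p under 0.05, beside 0.344% of all genes higher and 1.61% lower, and the median log2FC of the 38 was -0.40, against 0.00 over all genes.

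In the edited cells Adar itself comes first. It measured 4.20, 3.42 and 4.28 in NTC progenitors, 4.36, 4.23 and 4.24 in Adar KO sgRNA 1 progenitors, 5.73 and 5.67 in NTC macrophages and 6.96, 7.15 and 7.01 in Adar KO sgRNA 1 macrophages. In the sgRNA 2 set it was 4.35, 4.56 and 4.36 in progenitors and 7.02, 7.00, 7.02, 7.03 and 6.99 in macrophages. The KO libraries are not lower, and since an edit need not lower the mRNA, this level does not check the labels, so directions are given for libraries labelled Adar KO. Editing was checked by the authors on genomic DNA, which these files do not hold.

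When progenitors became macrophages, replication genes fell in NTC cells and in cells labelled Adar KO with either guide, and E2f1 rose. No member was called between KO and NTC progenitors, while most members were higher in KO than in NTC macrophages. In the next values KO means sgRNA 1.

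Mcm2 measured 8.28, 7.91 and 8.14 in NTC progenitors, 3.83 and 3.99 in NTC macrophages, 8.33, 8.24 and 8.12 in KO progenitors and 4.80, 5.20 and 4.97 in KO macrophages. Mcm5 measured 5.85, 5.51 and 5.42 in NTC progenitors, 1.07 and 0.80 in NTC macrophages, 5.57, 5.81 and 5.58 in KO progenitors and 2.28, 2.06 and 1.91 in KO macrophages. Cdc6 measured 7.10, 7.30 and 7.00 in NTC progenitors, 0.94 and 0.98 in NTC macrophages, 7.05, 7.05 and 7.05 in KO progenitors and 3.75, 3.57 and 3.22 in KO macrophages. Mcm2, Mcm5 and Cdc6 were lower in all NTC macrophages than in all NTC progenitors, and higher in all KO than in all NTC macrophages. Ranges in NTC and KO macrophages were 0.99 to 1.26 and 3.64 to 3.77 for Mcm10, 2.21 to 2.50 and 3.34 to 3.81 for Cdt1, 3.80 to 3.90 and 4.82 to 5.16 for Gins2, and 2.53 to 2.66 and 3.29 to 3.88 for Cdc45. Mcm10, Cdt1, Gins2 and Cdc45 were higher in all KO than in all NTC macrophages.

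Pcna measured 8.11, 8.36 and 8.00 in NTC progenitors, 6.99 and 7.00 in NTC macrophages, 8.07, 8.07 and 7.88 in KO progenitors and 7.13, 7.39 and 7.23 in KO macrophages. Pola1 measured 6.91, 6.57 and 6.48 in NTC progenitors, 3.37 and 3.73 in NTC macrophages, 6.74, 6.45 and 6.50 in KO progenitors and 4.97, 4.76 and 4.68 in KO macrophages. Pcna and Pola1 were lower in all NTC macrophages than in all NTC progenitors, and higher in all KO than in all NTC macrophages. Ranges in NTC and KO macrophages were 1.97 to 2.40 and 3.25 to 3.70 for Prim1, and 0.10 to 0.28 and 2.58 to 3.12 for Pole. Prim1 and Pole were higher in all KO than in all NTC macrophages. Rrm2 measured 9.41, 9.93 and 9.74 in NTC progenitors, 2.66 and 2.95 in NTC macrophages, 9.30, 9.64 and 9.54 in KO progenitors and 6.13, 6.35 and 6.26 in KO macrophages. Tyms measured 7.44, 7.53 and 7.18 in NTC progenitors, 1.91 and 2.00 in NTC macrophages, 7.26, 7.42 and 7.29 in KO progenitors and 4.22, 4.34 and 3.90 in KO macrophages. Rrm2 and Tyms were lower in all NTC macrophages than in all NTC progenitors, and higher in all KO than in all NTC macrophages. Ranges in NTC and KO macrophages were 5.50 to 5.59 and 6.30 to 6.57 for Rrm1, 2.03 to 2.68 and 4.36 to 4.41 for Tk1, and -0.60 to 0.67 and 0.85 to 1.84 for Dut. Rrm1, Tk1 and Dut were higher in all KO than in all NTC macrophages.

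Uhrf1 measured 7.56, 7.12 and 7.66 in NTC progenitors, 1.55 and 1.85 in NTC macrophages, 7.71, 7.55 and 7.50 in KO progenitors and 3.84, 4.53 and 4.44 in KO macrophages. Uhrf1 was lower in all NTC macrophages than in all NTC progenitors, and higher in all KO than in all NTC macrophages. Ranges in NTC and KO macrophages were 3.39 to 3.41 and 4.76 to 4.95 for Lig1, 5.87 to 5.95 and 6.76 to 7.07 for Fen1, 0.06 to 0.21 and 1.64 to 1.78 for Chaf1a, and 6.65 to 6.69 and 6.93 to 7.47 for Slbp. Lig1, Fen1, Chaf1a and Slbp were higher in all KO than in all NTC macrophages. E2f1 measured 3.32, 3.24 and 3.32 in NTC progenitors, 5.56 and 5.39 in NTC macrophages, 3.13, 3.19 and 3.19 in KO progenitors and 5.11, 5.34 and 5.44 in KO macrophages. Ccne2 measured 6.69, 6.93 and 6.29 in NTC progenitors, 0.87 and 1.25 in NTC macrophages, 6.60, 6.52 and 6.48 in KO progenitors and 4.70, 4.56 and 4.53 in KO macrophages. Ccne2 was lower in all NTC macrophages than in all NTC progenitors, and E2f1 was higher. Ccne2 was higher in all KO than in all NTC macrophages, and E2f1 overlapped. Ranges in NTC and KO macrophages were -0.20 to 0.05 and 0.60 to 1.06 for Ccne1. Ccne1 was higher in all KO than in all NTC macrophages.

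From NTC progenitors to NTC macrophages limma called 37 members lower and 1 higher (limma adjusted p 4.69e-11 to 0.000158), beside 33.1% of all genes higher and 38.7% lower, and the median log2FC of the 38 was -3.71, against -0.08 over all 11008 genes. Log2FC ran from Rrm2 (-6.89 ± 0.16), Mcm6 (-6.78 ± 0.46) and Cdc6 (-6.18 ± 0.16) to Rfc2 (-1.24 ± 0.19), Pcna (-1.16 ± 0.13) and E2f1 (2.18 ± 0.14). With sgRNA 1 the counts were 37 lower and 1 higher (limma adjusted p 9.36e-10 to 0.00145), beside 34.1% of all genes higher and 37.1% lower, and the median log2FC of the 38 was -2.23, against -0.06 over all genes. Log2FC ran from Dut (-4.32 ± 0.37), Mcm5 (-3.57 ± 0.16) and Cdc6 (-3.54 ± 0.14) to Rfc2 (-0.80 ± 0.17), Pcna (-0.76 ± 0.11) and E2f1 (2.12 ± 0.12). In both comparisons all 38 members were without overlap between stages, as were 79.3% and 77.2% of all genes. Of the other lists, limma called 1 higher and 37 lower of 38 further replication genes (median -2.7), 3 and 7 of 11 dNTP genes (median -2.55), 4 and 11 of 18 G1 and E2F-Rb genes (median -2.38), 3 and 0 of 6 CDK inhibitors (median 1.87) and 0 and 13 of 13 mitosis genes (median -5.41) in NTC cells. In KO cells it called 0 higher and 36 lower of 38 further replication genes (median -1.98), 3 and 6 of 11 dNTP genes (median -2.06), 4 and 10 of 18 G1 and E2F-Rb genes (median -1.23), 4 and 0 of 6 CDK inhibitors (median 1.52) and 0 and 13 of 13 mitosis genes (median -3.18). Mitosis genes fell most in NTC cells, where Plk1 (-7.38 ± 0.21), Kif11 (-6.73 ± 0.20), Birc5 (-6.44 ± 0.13) and Ccnb2 (-6.42 ± 0.16) led. In NTC macrophages against progenitors neutrophil (11.2 to 16.3 against 20525 to 28706 CPM, 9 of 9 called lower) and erythroid markers (1.62 to 2.77 against 479 to 763 CPM, 5 of 5 called lower) were lower too, as in KO neutrophil (71.4 to 84.4 against 14992 to 21094 CPM, 8 of 9 called lower) and erythroid markers (0.469 to 0.849 against 614 to 764 CPM, 5 of 5 called lower), and their part was not tested.

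Between KO and NTC progenitors limma called 0 members, with 0 at an unadjusted p under 0.05, beside 0.282% of all genes higher and 0.654% lower, and the median log2FC of the 38 was -0.10, against -0.01 over all 11008 genes. Their member means were nonetheless lower in KO in each pair of one number, 6.71, 6.71 and 6.64 against 6.74, 6.82 and 6.72. Between KO and NTC macrophages it called 32 higher and 0 lower (limma adjusted p 2.02e-07 to 0.0376), beside 14.5% of all genes higher and 7.29% lower, and the median log2FC of the 38 was 1.1, against 0.05 over all genes. Log2FC ran from Prim2 (0.48 ± 0.12), Slbp (0.51 ± 0.15) and Rpa2 (0.54 ± 0.14) to Mcm6 (3.19 ± 0.46), Rrm2 (3.44 ± 0.16) and Ccne2 (3.54 ± 0.18). By role, 12 of 12 licensing and helicase, 2 of 5 clamp and loader, 4 of 6 polymerase and primase, 5 of 5 nucleotide supply, 3 of 3 flap, ligation and single-strand binding, 4 of 4 chromatin and 2 of 3 G1/S control genes were higher. All 32 were without overlap between KO and NTC, as were 99.9% of all called genes. Called or not, 34 members and 52.6% of all genes did not overlap, with 2 NTC libraries. The difference between KO and NTC changed with stage for 30 members in one direction and 0 in the other (limma adjusted p 4.27e-06 to 0.0462), beside 9.9% of all genes higher and 3.72% lower, and the median log2FC of the 38 was 1.16, against 0.08 over all genes. Log2FC ran from Prim2 (0.62 ± 0.17), Rpa2 (0.62 ± 0.18) and Slbp (0.68 ± 0.20) to Mcm6 (3.26 ± 0.61), Rrm2 (3.64 ± 0.22) and Ccne2 (3.65 ± 0.24). Mitosis genes were higher in KO macrophages for 12 of 13 (median 2.48), and further replication genes for 19 of 38. Within the other replication and cell cycle lists the largest changes were in the D cyclins Ccnd1 and Ccnd2 and the mitotic genes Plk1 and Kif11, at Ccnd1 (4.55 ± 0.28), Ccnd2 (3.81 ± 0.12), Plk1 (3.61 ± 0.21) and Kif11 (3.48 ± 0.20). KO differed from NTC macrophages in neutrophil (71.4 to 84.4 against 11.2 to 16.3 CPM, 3 of 9 called higher), endothelial (up to 141 CPM, all above 37.2 to 48.2 CPM, 1 of 2 called higher) and macrophage markers (65864 to 72648 against 68986 to 84641 CPM, 4 of 7 called lower) too, and their part was not tested.

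The sgRNA 2 libraries have no NTC in their set, so they show maturation alone. Mcm2 measured 9.08, 9.04 and 9.00 in progenitors and 6.50, 6.71, 6.61, 6.52 and 6.58 in macrophages. Mcm5 measured 6.36, 6.40 and 6.09 in progenitors and 4.31, 3.85, 4.13, 4.20 and 4.00 in macrophages. Cdc6 measured 7.48, 7.53 and 7.54 in progenitors and 4.43, 4.50, 4.57, 4.42 and 4.69 in macrophages. Mcm2, Mcm5, Cdc6, Mcm10, Cdt1, Gins2 and Cdc45 were lower in all macrophages than in all progenitors. Pcna measured 8.18, 8.13 and 8.04 in progenitors and 7.41, 7.35, 7.40, 7.33 and 7.57 in macrophages. Pola1 measured 6.94, 6.81 and 6.85 in progenitors and 4.93, 4.85, 4.90, 4.93 and 5.30 in macrophages. Pcna, Pola1, Prim1 and Pole were lower in all macrophages than in all progenitors. Rrm2 measured 10.57, 10.62 and 10.57 in progenitors and 7.47, 7.72, 7.59, 7.51 and 7.74 in macrophages. Tyms measured 7.06, 6.90 and 6.94 in progenitors and 4.29, 4.26, 4.17, 4.27 and 4.40 in macrophages. Rrm2, Tyms, Rrm1, Tk1 and Dut were lower in all macrophages than in all progenitors. Uhrf1 measured 8.48, 8.45 and 8.38 in progenitors and 6.04, 5.91, 6.02, 6.06 and 6.16 in macrophages. Uhrf1, Lig1, Fen1, Chaf1a and Slbp were lower in all macrophages than in all progenitors. E2f1 measured 3.07, 3.09 and 2.83 in progenitors and 5.38, 5.23, 5.22, 5.25 and 5.28 in macrophages. Ccne2 measured 6.94, 6.94 and 6.97 in progenitors and 5.26, 5.30, 5.10, 5.40 and 5.14 in macrophages. Ccne2 and Ccne1 were lower in all macrophages than in all progenitors, and E2f1 was higher.

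With sgRNA 2, limma called 37 members lower and 1 higher in macrophages (limma adjusted p 6.31e-12 to 0.00188), beside 39.7% of all genes higher and 41.6% lower, and the median log2FC of the 38 was -1.89, against -0.03 over all 10698 genes. Log2FC ran from Dut (-3.31 ± 0.22), Cdc6 (-3.0 ± 0.07) and Rrm2 (-2.98 ± 0.06) to Cdt1 (-0.53 ± 0.12), Rfc2 (-0.33 ± 0.06) and E2f1 (2.28 ± 0.08). All 38 members were without overlap between these stages, as were 77.5% of all genes. Of the other lists it called 0 higher and 36 lower of 38 further replication genes (median -1.53), 3 and 6 of 11 dNTP genes (median -1.88), 6 and 10 of 18 G1 and E2F-Rb genes (median -0.89), 4 and 0 of 6 CDK inhibitors (median 0.50) and 0 and 13 of 13 mitosis genes (median -2.7). Neutrophil markers summed to 25.2 to 31.2 CPM in macrophages and 4084 to 4716 CPM in progenitors (4 of 6 called lower, 2 higher), and their part was not tested.

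In the baricitinib experiment Adar measured 5.12, 4.94 and 4.69 at 0 uM, 4.66, 5.04 and 4.81 at 0.0006, 4.31, 4.58, 4.40 and 4.34 at 0.016, 4.50, 4.22, 4.29 and 3.92 at 0.4, 3.70, 3.64 and 3.22 at 10 uM in NTC macrophages. In macrophages labelled Adar KO it measured 7.42, 6.52 and 6.37 at 0 uM, 5.90, 5.94 and 6.21 at 0.0006, 6.25, 5.90 and 6.37 at 0.016, 4.12, 7.38 and 4.21 at 0.4, 1.55, 2.15, 2.91 and 2.03 at 10 uM. It was above NTC at 0 uM and below NTC at 10 uM, so it does not check the labels here either. At 0.4 uM Adar KO replicates 1 and 3 lay within the NTC range for Adar and for the member mean, and replicate 2 lay outside it for both. On other sums replicates 1 and 3 lay outside it too, with neutrophil markers at 245 and 325 against 53 to 94.1 CPM, endothelial at 73.5 and 68.5 against 38.6 to 44.5 and macrophage at 52928 and 51449 against 62466 to 67673.

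Without drug, most members were lower in macrophages labelled Adar KO than in NTC macrophages, the opposite direction to the first experiment, in which KO macrophages were higher. Most KO members were higher at 10 uM than at 0 uM and fewer were then called against NTC. At 10 uM 22 members, and 50.9% of all genes, did not overlap NTC, and the KO member means of 6.03, 6.23, 6.31 and 6.23 lay below 6.39, 6.55 and 6.39 in NTC. The member mean in KO macrophages was 4.38 ± 0.21 at 0 uM, 4.51 ± 0.15 at 0.0006, 4.61 ± 0.08 at 0.016, 5.45 ± 0.94 at 0.4, 6.20 ± 0.12 at 10 uM. In NTC macrophages it was 5.85 ± 0.05 at 0 uM, 6.09 ± 0.05 at 0.0006, 6.06 ± 0.11 at 0.016, 6.03 ± 0.10 at 0.4, 6.44 ± 0.09 at 10 uM.

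Mcm2 in NTC macrophages measured 6.76, 6.85 and 6.57 at 0 uM, 6.74, 6.75 and 6.58 at 0.0006, 6.51, 6.59, 6.50 and 6.65 at 0.016, 6.71, 6.54, 6.76 and 6.59 at 0.4 and 6.68, 7.04 and 6.71 at 10 uM. KO macrophages had Mcm2 at 5.13, 5.30 and 5.47 at 0 uM, 4.89, 5.15 and 4.74 at 0.0006, 4.86, 5.05 and 5.08 at 0.016, 6.64, 4.81 and 6.43 at 0.4 and 4.30, 4.80, 5.37 and 4.80 at 10 uM. Mcm2 in KO was below all NTC libraries at 0 and 10 uM. Mcm5 in NTC macrophages measured 5.02, 5.35 and 5.13 at 0 uM, 5.18, 5.40 and 5.16 at 0.0006, 5.28, 5.30, 5.18 and 5.44 at 0.016, 5.48, 5.11, 5.24 and 5.24 at 0.4 and 5.76, 5.93 and 5.43 at 10 uM. KO macrophages had Mcm5 at 3.24, 3.28 and 3.83 at 0 uM, 3.40, 3.64 and 3.56 at 0.0006, 3.17, 3.49 and 3.37 at 0.016, 5.30, 3.57 and 5.29 at 0.4 and 3.77, 2.82, 4.34 and 3.86 at 10 uM. Mcm5 in KO was below all NTC libraries at 0 and 10 uM. Cdc6 in NTC macrophages measured 5.32, 5.82 and 5.53 at 0 uM, 5.62, 5.74 and 5.89 at 0.0006, 5.65, 5.90, 5.68 and 5.64 at 0.016, 5.78, 5.76, 5.85 and 5.98 at 0.4 and 6.22, 6.22 and 6.36 at 10 uM. KO macrophages had Cdc6 at 2.90, 3.42 and 3.79 at 0 uM, 3.62, 3.96 and 3.43 at 0.0006, 4.04, 4.31 and 4.18 at 0.016, 5.98, 3.79 and 5.82 at 0.4 and 5.92, 5.88, 5.87 and 6.10 at 10 uM. Cdc6 in KO was below all NTC libraries at 0 and 10 uM. Ranges at 0 uM in NTC and KO were 5.07 to 5.46 and 3.10 to 3.41 for Mcm10, 3.94 to 4.51 and 2.57 to 2.88 for Cdt1, 5.67 to 6.00 and 3.97 to 4.91 for Gins2, and 4.82 to 5.14 and 3.13 to 3.61 for Cdc45. At 10 uM they were 5.65 to 5.85 and 4.57 to 5.26 for Mcm10, 4.06 to 4.33 and 3.30 to 3.83 for Cdt1, 6.63 to 6.80 and 6.47 to 6.63 for Gins2, and 5.40 to 5.61 and 5.40 to 5.68 for Cdc45. Mcm10 and Cdt1 were lower in all KO than in all NTC libraries, and Gins2 and Cdc45 overlapped at 10 uM.

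Pcna in NTC macrophages measured 8.02, 8.39 and 8.33 at 0 uM, 8.32, 8.30 and 8.40 at 0.0006, 8.38, 8.48, 8.38 and 8.37 at 0.016, 8.40, 8.43, 8.38 and 8.62 at 0.4 and 8.75, 8.76 and 8.78 at 10 uM. KO macrophages had Pcna at 6.82, 6.93 and 7.14 at 0 uM, 7.13, 7.07 and 7.17 at 0.0006, 7.07, 7.36 and 7.16 at 0.016, 8.28, 7.31 and 8.29 at 0.4 and 8.59, 8.84, 8.52 and 8.60 at 10 uM. Pcna in KO was below all NTC libraries at 0 uM and overlapping NTC at 10 uM. Pola1 in NTC macrophages measured 6.11, 6.49 and 6.44 at 0 uM, 6.34, 6.50 and 6.66 at 0.0006, 6.34, 6.69, 6.50 and 6.45 at 0.016, 6.34, 6.53, 6.54 and 6.57 at 0.4 and 7.02, 6.97 and 6.99 at 10 uM. KO macrophages had Pola1 at 4.38, 4.44 and 4.54 at 0 uM, 4.43, 4.85 and 4.32 at 0.0006, 5.06, 4.98 and 4.77 at 0.016, 6.34, 4.60 and 6.16 at 0.4 and 7.00, 7.22, 6.95 and 7.00 at 10 uM. Pola1 in KO was below all NTC libraries at 0 uM and overlapping NTC at 10 uM. Ranges at 0 uM in NTC and KO were 4.75 to 5.20 and 2.91 to 3.44 for Prim1, and 3.97 to 4.50 and 2.75 to 2.93 for Pole. At 10 uM they were 5.72 to 6.15 and 5.98 to 6.30 for Prim1, and 4.62 to 4.85 and 4.74 to 5.18 for Pole. Prim1 and Pole overlapped between KO and NTC libraries at 10 uM.

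Rrm2 in NTC macrophages measured 8.43, 8.72 and 8.53 at 0 uM, 8.92, 8.94 and 9.06 at 0.0006, 8.86, 8.90, 8.90 and 8.68 at 0.016, 8.71, 8.88, 8.90 and 8.53 at 0.4 and 9.19, 9.58 and 8.92 at 10 uM. KO macrophages had Rrm2 at 5.51, 6.35 and 6.81 at 0 uM, 6.50, 6.83 and 6.16 at 0.0006, 6.61, 7.00 and 6.54 at 0.016, 8.81, 5.58 and 8.58 at 0.4 and 8.93, 9.06, 9.31 and 9.14 at 10 uM. Rrm2 in KO was below all NTC libraries at 0 uM and overlapping NTC at 10 uM. Tyms in NTC macrophages measured 5.15, 5.77 and 5.35 at 0 uM, 5.93, 5.76 and 6.16 at 0.0006, 5.88, 6.14, 6.35 and 5.73 at 0.016, 5.91, 6.15, 6.00 and 5.76 at 0.4 and 6.65, 6.93 and 6.41 at 10 uM. KO macrophages had Tyms at 3.77, 4.22 and 4.43 at 0 uM, 4.12, 4.91 and 4.27 at 0.0006, 4.41, 4.69 and 4.28 at 0.016, 6.28, 4.48 and 6.15 at 0.4 and 7.20, 7.76, 7.26 and 7.41 at 10 uM. Tyms in KO was below all NTC libraries at 0 uM and above all at 10 uM. Ranges at 0 uM in NTC and KO were 7.72 to 8.09 and 6.13 to 6.65 for Rrm1, 6.51 to 6.98 and 4.03 to 4.68 for Tk1, and 2.15 to 4.14 and 1.08 to 1.77 for Dut. At 10 uM they were 8.71 to 9.15 and 8.77 to 8.98 for Rrm1, 7.46 to 8.01 and 7.38 to 7.85 for Tk1, and 4.33 to 4.61 and 4.83 to 5.48 for Dut. Dut was higher in all KO than in all NTC libraries, and Rrm1 and Tk1 overlapped at 10 uM.

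Uhrf1 in NTC macrophages measured 6.55, 6.64 and 6.38 at 0 uM, 6.59, 6.92 and 6.66 at 0.0006, 6.51, 6.72, 6.57 and 6.71 at 0.016, 6.63, 6.52, 6.80 and 6.58 at 0.4 and 6.51, 6.90 and 6.63 at 10 uM. KO macrophages had Uhrf1 at 4.56, 4.66 and 4.81 at 0 uM, 4.41, 4.49 and 4.07 at 0.0006, 4.23, 4.36 and 4.30 at 0.016, 6.55, 4.37 and 6.15 at 0.4 and 3.81, 4.36, 5.38 and 4.83 at 10 uM. Uhrf1 in KO was below all NTC libraries at 0 and 10 uM. Ranges at 0 uM in NTC and KO were 6.38 to 6.91 and 4.04 to 4.65 for Lig1, 7.72 to 7.90 and 6.61 to 7.18 for Fen1, 2.86 to 3.42 and 1.47 to 2.12 for Chaf1a, and 7.80 to 7.88 and 6.70 to 7.38 for Slbp. At 10 uM they were 7.45 to 7.91 and 6.99 to 8.29 for Lig1, 8.43 to 8.85 and 8.21 to 8.68 for Fen1, 3.57 to 4.27 and 3.34 to 4.29 for Chaf1a, and 8.22 to 8.67 and 8.95 to 9.21 for Slbp. Slbp was higher in all KO than in all NTC libraries, and Lig1, Fen1 and Chaf1a overlapped at 10 uM.

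E2f1 in NTC macrophages measured 4.92, 5.05 and 5.07 at 0 uM, 4.80, 5.17 and 4.87 at 0.0006, 4.75, 4.99, 5.02 and 5.04 at 0.016, 4.89, 4.90, 4.85 and 5.02 at 0.4 and 4.39, 4.44 and 4.71 at 10 uM. KO macrophages had E2f1 at 5.38, 5.47 and 5.38 at 0 uM, 5.21, 5.22 and 5.19 at 0.0006, 5.13, 5.29 and 5.24 at 0.016, 4.96, 4.72 and 5.04 at 0.4 and 3.29, 3.01, 3.47 and 3.80 at 10 uM. E2f1 in KO was above all NTC libraries at 0 uM and below all at 10 uM. Ccne2 in NTC macrophages measured 6.14, 6.43 and 6.42 at 0 uM, 6.54, 6.56 and 6.90 at 0.0006, 6.15, 6.92, 6.62 and 6.61 at 0.016, 6.42, 6.80, 6.55 and 6.69 at 0.4 and 7.22, 7.36 and 7.28 at 10 uM. KO macrophages had Ccne2 at 4.03, 4.82 and 4.71 at 0 uM, 4.74, 4.89 and 4.37 at 0.0006, 4.68, 5.29 and 4.69 at 0.016, 7.07, 3.67 and 6.97 at 0.4 and 8.03, 7.87, 7.44 and 7.87 at 10 uM. Ccne2 in KO was below all NTC libraries at 0 uM and above all at 10 uM. Ranges at 0 uM in NTC and KO were 2.04 to 2.74 and 0.88 to 1.11 for Ccne1. At 10 uM they were 3.07 to 3.56 and 3.38 to 3.97 for Ccne1. Ccne1 overlapped between KO and NTC libraries at 10 uM.

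**Figure D3:**
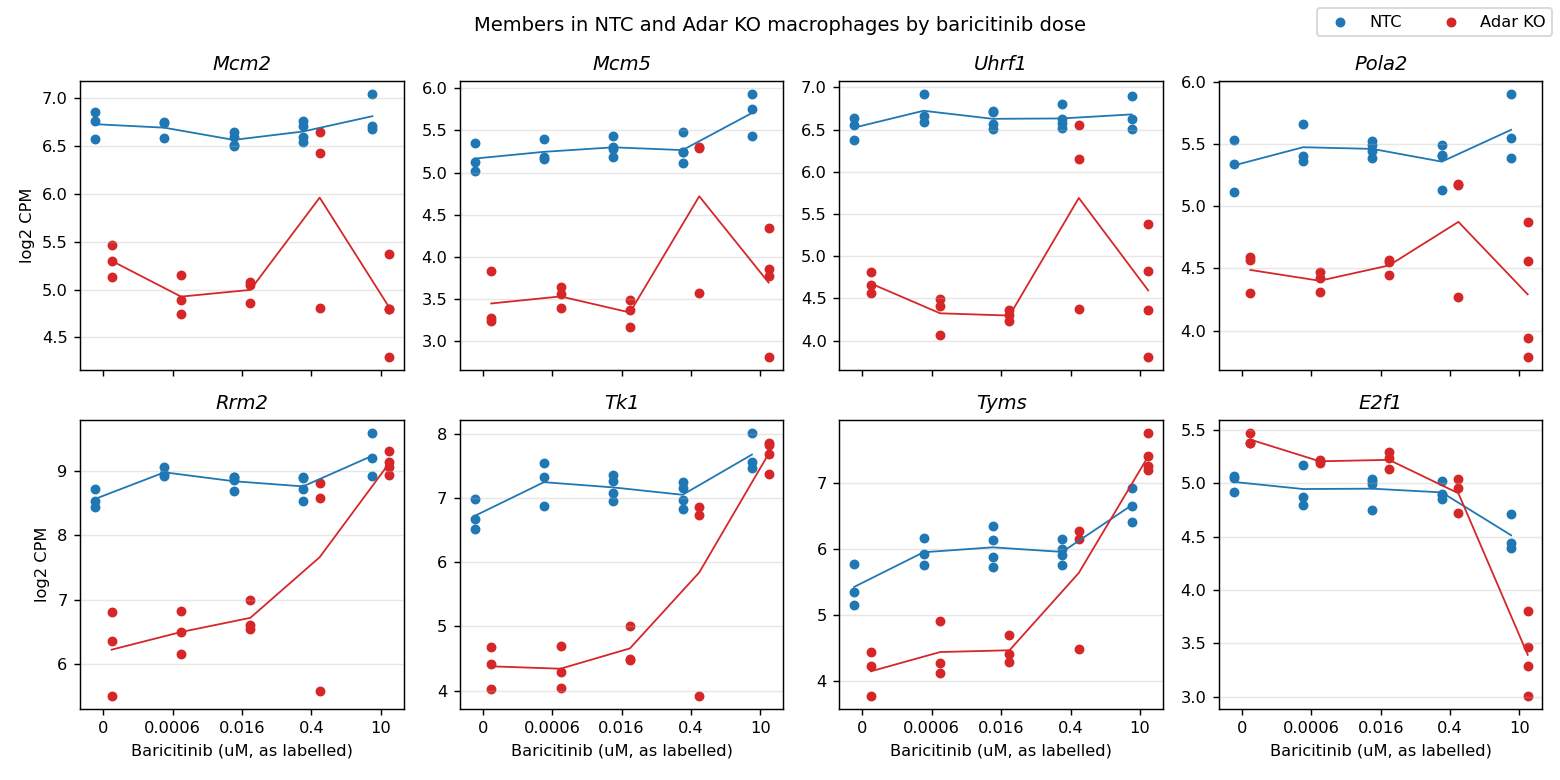
log2 CPM of 8 members in each NTC (blue) and Adar KO (red) macrophage library by labelled baricitinib dose (uM, equally spaced), with lines through the group means. For Mcm2, Mcm5, Uhrf1 and Pola2 red stays below blue at 10 uM, for Tyms red reaches blue and passes it, and E2f1 falls in red at 10 uM.

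At 0 uM limma called 34 members lower and 1 higher in KO (limma adjusted p 2.33e-08 to 0.0384), beside 11.5% of all genes higher and 13.7% lower, and the median log2FC of the 38 was -1.43, against -0.02 over all 11152 genes. Log2FC ran from Mcm6 (-2.72 ± 0.56), Tk1 (-2.35 ± 0.42) and Rrm2 (-2.33 ± 0.45) to Pola2 (-0.84 ± 0.22), Slbp (-0.84 ± 0.16) and E2f1 (0.40 ± 0.14). By role, 12 of 12 licensing and helicase, 4 of 5 clamp and loader, 5 of 6 polymerase and primase, 4 of 5 nucleotide supply, 3 of 3 flap, ligation and single-strand binding, 4 of 4 chromatin and 2 of 3 G1/S control genes were lower. At 0.0006 uM the counts were 34 lower and 0 higher (limma adjusted p 4.48e-09 to 0.0159), beside 13.5% of all genes higher and 15.5% lower, and the median log2FC of the 38 was -1.62, against 0.00 over all genes. Log2FC ran from Tk1 (-2.91 ± 0.42), Lig1 (-2.52 ± 0.34) and Pole (-2.52 ± 0.23) to Fen1 (-0.93 ± 0.22), Cdt1 (-0.91 ± 0.21) and Slbp (-0.82 ± 0.16). At 0.016 uM they were 35 and 0 (limma adjusted p 2.16e-09 to 0.0182), beside 16.6% of all genes higher and 15.7% lower, and the median log2FC of the 38 was -1.55, against 0.00 over all genes. Log2FC ran from Tk1 (-2.51 ± 0.39), Mcm6 (-2.42 ± 0.52) and Uhrf1 (-2.33 ± 0.31) to Rfc3 (-0.82 ± 0.11), Fen1 (-0.71 ± 0.21) and Slbp (-0.47 ± 0.15). Lower in all 3 of these doses were 32 members and 8.96% of all genes. At 0 uM 37 members, and 42.1% of all genes, did not overlap between KO and NTC. Of the other lists limma called 0 higher and 28 lower of 38 further replication genes (median -1.31), 2 and 4 of 11 dNTP genes (median -0.42), 1 and 8 of 18 G1 and E2F-Rb genes (median -0.82), 1 and 1 of 6 CDK inhibitors (median -0.84) and 0 and 10 of 13 mitosis genes (median -1.91) at 0 uM. The largest changes among these were in Rfc1 (-3.67 ± 0.99), Exo1 (-2.47 ± 0.44), Mki67 (-2.29 ± 0.37) and Clspn (-2.21 ± 0.51), of which Rfc1 is the large subunit of the clamp loader and Exo1 an exonuclease. Endothelial markers summed to 70.5 to 88.3, 75.2 to 112 and 92 to 135 CPM in KO and 51.3 to 55.7, 42.8 to 48.9 and 39.8 to 49 in NTC at these 3 doses, and neutrophil markers at 0 uM ran 54.5 to 68.5 in KO and 75.2 to 95.6 in NTC. Their part was not tested.

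At 0.4 uM limma called 9 members lower and 0 higher (limma adjusted p 0.00946 to 0.0447), beside 7.68% of all genes higher and 5.77% lower, and the median log2FC of the 38 was -0.63, against 0.01 over all 11152 genes. Log2FC ran from Tk1 (-1.21 ± 0.39), Pold1 (-0.97 ± 0.25) and Uhrf1 (-0.94 ± 0.31) to Mcm10 (-0.69 ± 0.20), Chaf1b (-0.66 ± 0.20) and Pcna (-0.50 ± 0.15). That count was 4, 5, 4 and 4 without NTC 0.4 uM replicate 1, 2, 3 or 4, and 27, 0 and 21 without Adar KO 0.4 uM replicate 1, 2 or 3. With only these groups fitted it was 0, and with no filter on low values 5. At 10 uM the counts were 11 lower and 4 higher (limma adjusted p 1e-07 to 0.0333), beside 21.5% of all genes higher and 23.9% lower, and the median log2FC of the 38 was -0.01, against 0.00 over all genes. Lower were Uhrf1 (-2.09 ± 0.31), Mcm5 (-2.01 ± 0.29), Mcm2 (-1.99 ± 0.26), Pola2 (-1.32 ± 0.20), Mcm7 (-1.14 ± 0.24), E2f1 (-1.12 ± 0.13), Pold1 (-0.88 ± 0.25), Mcm10 (-0.74 ± 0.20), Mcm3 (-0.71 ± 0.25), Cdt1 (-0.66 ± 0.19) and Chaf1b (-0.60 ± 0.20). Higher were Rfc2 (0.30 ± 0.09), Slbp (0.63 ± 0.15), Rfc4 (0.66 ± 0.24) and Tyms (0.75 ± 0.28). Mcm2, Mcm3, Mcm5 and Mcm7 are helicase subunits, Pola2 is the regulatory subunit of polymerase alpha, Pold1 the catalytic subunit of polymerase delta and Chaf1b a subunit of CAF, while Rfc2 and Rfc4 belong to the clamp loader. Of members lower at 0 uM, 9 were lower at 10 uM too, 3 were higher and 22 were not called. Of all genes lower at 0 uM the shares were 30.5%, 17.2% and 52.4%. At 10 uM progenitor markers summed to 10.9 to 14.5 CPM in KO and 1.9 to 3.02 in NTC. Microglia markers summed to 1513 to 1891 CPM in KO and 1171 to 1340 in NTC there, and the part of these lists was not tested.

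Within Adar KO, 10 uM against 0 uM raised 32 members and lowered 2 (limma adjusted p 2.78e-13 to 0.0273), beside 33.9% of all genes higher and 31.9% lower, and the median log2FC of the 38 was 2.06, against 0.05 over all 11152 genes. Log2FC ran from E2f1 (-2.02 ± 0.13), Pold1 (-0.63 ± 0.25) and Rfc2 (0.47 ± 0.09) to Tk1 (3.31 ± 0.39), Mcm6 (3.34 ± 0.52) and Dut (3.67 ± 0.63). Within NTC it raised 11 and lowered 1 (limma adjusted p 0.00756 to 0.0495), beside 5.88% of all genes higher and 7.94% lower, and the median log2FC of the 38 was 0.61, against 0.00 over all genes. Log2FC ran from E2f1 (-0.50 ± 0.14), Rfc3 (0.44 ± 0.11) and Pcna (0.51 ± 0.16) to Lig1 (0.99 ± 0.34), Tyms (1.24 ± 0.30) and Rfc5 (1.28 ± 0.40). The NTC count was 2 and 5 without NTC 0 uM replicate 1 or 3, and 6 and 2 without NTC 10 uM replicate 1 or 2, and 28 with only these groups fitted. The change with 10 uM was higher in KO than in NTC for 30 members and lower for 1, E2f1, which fell more in KO (limma adjusted p 9.1e-07 to 0.0476), beside 19.5% of all genes higher and 20% lower, and the median log2FC of the 38 was 1.45, against 0.06 over all genes. Log2FC ran from E2f1 (-1.52 ± 0.19), Cdt1 (0.75 ± 0.28) and Fen1 (0.75 ± 0.30) to Ccne2 (2.32 ± 0.65), Mcm6 (2.32 ± 0.77) and Tk1 (2.35 ± 0.57). In NTC 11 of 13 mitosis genes were higher (median 1.44). In KO at 10 uM limma called 32 higher and 2 lower of 38 further replication genes (median 1.83), 5 and 3 of 11 dNTP genes (median 0.24), 9 and 1 of 18 G1 and E2F-Rb genes (median 1.15), 2 and 2 of 6 CDK inhibitors (median 1.70) and 13 and 0 of 13 mitosis genes (median 3.81). The mitotic genes Ccna2 (4.95 ± 0.40), Cenpf (4.78 ± 0.39), Mki67 (4.70 ± 0.35) and Ccnb2 (4.23 ± 0.43) rose most among them. Progenitor markers (most abundant Cd34) summed to 10.9 to 14.5 CPM at 10 uM against 2.84 to 3.8 at 0 uM in KO, and macrophage markers to 42848 to 46825 against 60518 to 65177 in NTC. Endothelial markers summed to 31.1 to 39.4 against 70.5 to 88.3 in KO and 22.4 to 32.5 against 51.3 to 55.7 in NTC. Their part was not tested.

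At 0.4 uM against 0 uM, limma called 0 members in NTC, with 0 at an unadjusted p under 0.05, beside 0% of all genes higher and 0.00897% lower, and the median log2FC of the 38 was 0.17, against -0.01 over all 11152 genes. In Adar KO it called 31 higher and 1 lower (limma adjusted p 1.64e-09 to 0.0435), beside 15.1% of all genes higher and 11.5% lower, and the median log2FC of the 38 was 1.12, against 0.03 over all genes. Log2FC ran from E2f1 (-0.50 ± 0.14), Fen1 (0.82 ± 0.22) and Chaf1b (0.86 ± 0.22) to Cdc6 (1.83 ± 0.31), Mcm6 (1.96 ± 0.56) and Lig1 (2.15 ± 0.34). That count was 21 without Adar KO 0.4 uM replicate 3 and 2 with only these groups fitted. Of the called, 15 did not overlap, against 77.6% of all called genes. Called or not, 15 members and 30.2% of all genes did not overlap. In KO, macrophage markers summed to 45238 to 52928 CPM at 0.4 uM and 55524 to 61893 at 0 uM. Neutrophil markers summed to 76.2 to 325 against 54.5 to 68.5 CPM and microglia markers to 1586 to 1872 against 672 to 1020. The part of these lists was not tested.

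The contrast of macrophages labelled Adar KO with NTC ran in opposite directions in the experiments, with a member mean difference of 1.32 in the first and -1.47 at 0 uM in the second, and 31 members, and 3.28% of all genes tested in both, were called higher in the first and lower in the second. The sets were normalized apart, no library joins them, and the difference was not tested.

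**Figure D4:**
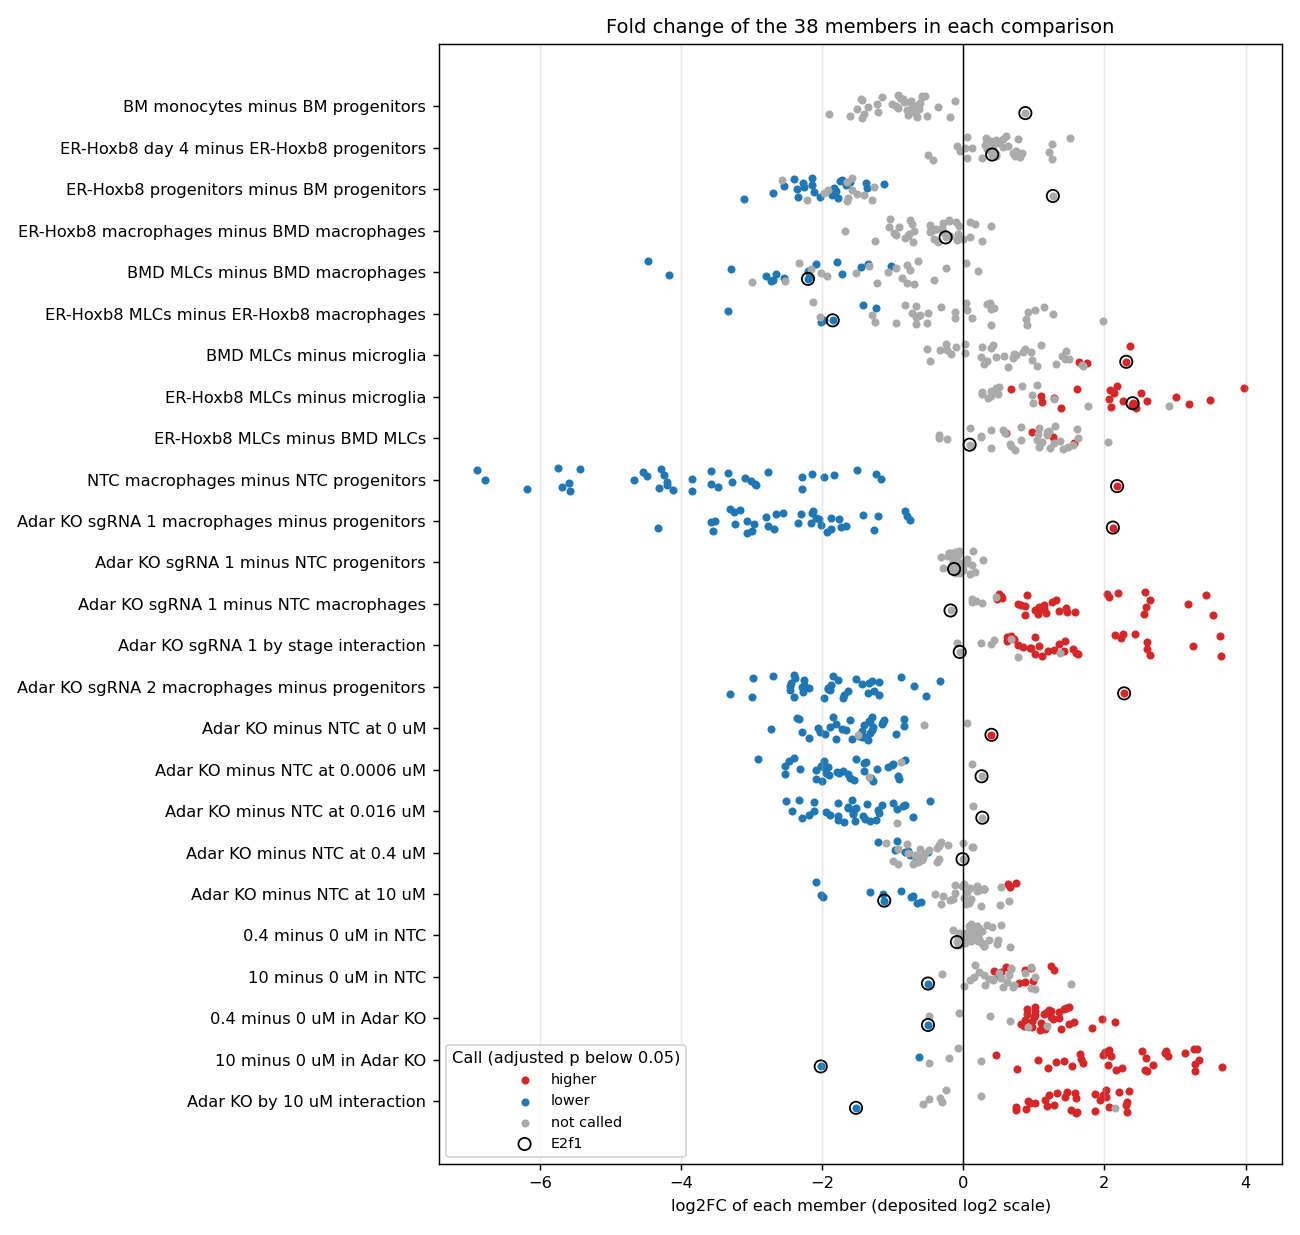
log2FC of each of the 38 members (points) in each of the 25 comparisons, red called higher, blue called lower and grey not called at an adjusted p below 0.05, with E2f1 ringed. Points of macrophages against progenitors lie left of 0 apart from E2f1, and those of 10 against 0 uM in Adar KO lie mostly right of 0.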

How the data were processed

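The authors quantified reads with kallisto 0.46.0 against GRCm39 transcripts, summed them to genes, applied TMM in edgeR and deposited log2 CPM with a small offset. Column names were joined to groups per the labels. Levels of members were compared only among columns with one lowest value, while marker sums were also listed across sets. CPM was recomputed as 2 to the power of the deposited log2 value, minus the same for the lowest value. Depth was estimated from the step between the low values, assuming a prior count of 2.

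A gene entered limma 3.58.1 (R 4.3.3) when its CPM exceeded 1 in 3 or more libraries, or in 6 or more for the fit with brain cells. It fitted group means to the deposited log2 values, 1 fit per set, with contrasts and trended eBayes. A call is a Benjamini-Hochberg adjusted p below 0.05 over all genes tested. The code was tested on simulated data. Summaries and figures used Python 3.11.15, numpy 2.4.6, pandas 2.3.3 and matplotlib 3.10.9.

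Members and lists were chosen with earlier results of these data known. Named in each comparison are the 3 called members with the largest and the 3 with the smallest log2FC, members against the main direction, and at most 4 of the other listed genes. The plan gave 24 members in every library. After the data were seen this was shortened to 10, with group ranges for the other 14. Libraries of one number were taken as paired where every correlation of deviations from group means was above 0.1, given 3 or more pairs. This held for ER-Hoxb8 progenitors and day 4 cells (0.23 to 0.43) and for Adar KO sgRNA 1 and NTC progenitors (0.16 to 0.35). There the replicate block gave 0 called members, as without it. Alternatives were the filter, pseudocount, centring, block, fold limit, groups fitted and each library left out.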

Additional observations from a re-analysis of the deposited data

Results flagged for a closer look

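In groups of 4 to 10 libraries, 28 of 182 tests for a library far from the others (Dixon, 95%) flagged one. Chance flags about 1 in 20. These tests share libraries, and the member mean holds the members, so they are not independent and no excess over chance is claimed. Of the 28 flags, 13 fell on microglia replicate 8. Its member mean was 1.32 (2.90 to 3.41 in the other 8), and low too were Mcm2 (-2.83, others 1.51 to 4.01), Mcm5 (-0.97, others 1.60 to 2.63), Cdt1 (-3.62, others 0.17 to 2.78), Gins2 (0.41, others 3.40 to 4.61), Cdc45 (-3.62, others 1.42 to 2.43), Prim1 (-1.18, others 2.63 to 3.64), Pole (-1.39, others -0.15 to 1.08), Rrm2 (-1.69, others 2.03 to 4.10), Dut (-2.77, others -0.61 to 1.58), Fen1 (2.73, others 4.54 to 5.86), Lig1 (-0.88, others 2.91 to 3.57) and E2f1 (-2.77, others 0.68 to 2.04). The same library held the highest astrocyte and neuron marker sums, and a mixture of cells and a difference in quality cannot be told apart here.

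In the cells sorted from transplanted brains, single values far from their group were Mcm10 in BMD MLCs replicate 4 (-0.21, others 1.26 to 1.94), Cdc6 in BMD MLCs replicate 3 (-3.62, others 1.63 to 3.96), Pola1 in BMD MLCs replicate 4 (5.66, others 4.37 to 4.81), Uhrf1 in BMD MLCs replicate 5 (3.18, others 1.06 to 1.69), Cdc6 in ER-Hoxb8 MLCs replicate 4 (-3.62, others 3.01 to 5.27), Pole in ER-Hoxb8 MLCs replicate 4 (-0.08, others 2.19 to 3.45) and E2f1 in ER-Hoxb8 MLCs replicate 6 (4.04, others 3.06 to 3.42). Among edited macrophages they were Pola1 in Adar KO sgRNA 2 macrophages replicate 5 (5.30, others 4.85 to 4.93), Pole in Adar KO sgRNA 2 macrophages replicate 2 (4.71, others 4.05 to 4.15), Rrm1 in Adar KO sgRNA 2 macrophages replicate 4 (6.87, others 6.93 to 6.95), Cdc6 in NTC 0.016 uM replicate 2 (5.90, others 5.64 to 5.68), Pcna in NTC 0.016 uM replicate 2 (8.48, others 8.37 to 8.38), Cdc45 in NTC 0.4 uM replicate 1 (5.14, others 5.24 to 5.25), Pole in NTC 0.4 uM replicate 3 (4.82, others 4.33 to 4.41) and Chaf1a in NTC 0.4 uM replicate 3 (3.87, others 3.50 to 3.56). They lie on several libraries, some by small gaps.

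A difference between groups flagged 4 results. The difference between libraries labelled Adar KO sgRNA 1 and NTC changed with stage for 30 members, all with a larger difference in macrophages, by the interaction term in limma. The effect of 10 uM baricitinib differed between Adar KO and NTC for 31 members. The member mean difference between libraries labelled Adar KO and NTC macrophages was 1.32 in the first experiment and -1.47 at 0 uM in the baricitinib experiment, in which every library of one group lay on one side of the other. This difference between experiments was not tested.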

How the results depend on the processing

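Counts of called members, which take no account of direction, were recomputed under 355 alternatives. Of these, 301 stayed within 1.5 times, 46 were lower and 8 higher. The pseudocount log2(CPM + 1) and centring kept all 25 counts within 1.5 times. For single members 12432 of 13488 values kept their call, 860 lost it, 196 gained one and 0 reversed. Of 117 member means 113 moved by less than 1 SD, which leaving out a library always gives by arithmetic. The 4 others came with log2(CPM + 1), and include the NTC macrophage library normalized alone, which has no SD. Without the filter, ER-Hoxb8 against BM progenitors gave 9 (24 with it) and Adar KO against NTC at 0.4 uM 5 (9). With only the compared groups fitted, BM monocytes against BM progenitors gave 29 (0), ER-Hoxb8 against BM progenitors 8, ER-Hoxb8 against BMD MLCs 7 (4), 10 against 0 uM in NTC 28 (12), Adar KO against NTC at 0.4 uM 0 and 0.4 against 0 uM in Adar KO 2 (32). A fold limit of 2 (log2) left, by its construction, 12 for ER-Hoxb8 against BM progenitors, 2 for ER-Hoxb8 MLCs against macrophages, 2 for BMD MLCs against microglia and 0 for ER-Hoxb8 against BMD MLCs. It left 10 for Adar KO sgRNA 1 against NTC macrophages, 10 for its interaction with stage and 16 for sgRNA 2 maturation. For Adar KO against NTC it left 7, 10, 7, 0 and 2 from 0 to 10 uM, for 10 against 0 uM 0 in NTC and 22 in Adar KO, for 0.4 against 0 uM in Adar KO 1 and for the interaction with 10 uM 8. With the GFPHox libraries alone, chosen after seeing the data, ER-Hoxb8 MLCs against macrophages gave 3 (6). With the WT libraries of microglia alone, also chosen so, the counts were 19 (22) for ER-Hoxb8 MLCs and 3 (4) for BMD MLCs. With each library dropped in turn, counts ran from 9 to 38 for ER-Hoxb8 against BM progenitors, 8 to 26 for BMD MLCs against BMD macrophages (17), 2 to 7 for ER-Hoxb8 MLCs against macrophages, 2 to 5 for BMD MLCs against microglia (4), 2 to 6 for ER-Hoxb8 against BMD MLCs, 2 to 8 for 10 against 0 uM in NTC, 0 to 27 for Adar KO against NTC at 0.4 uM and 21 to 36 for 0.4 against 0 uM in Adar KO. With 1 NTC macrophage library left, it was assumed to vary like the other groups. As a replicate block, numbers that pair nothing by the labels or correlations gave 1 for BM monocytes against BM progenitors and 2 for BMD MLCs against microglia, and the block moved no other count by over 1.5 times. Only in ER-Hoxb8 progenitors with day 4 cells and Adar KO sgRNA 1 with NTC progenitors did all 3 libraries correlate best with their own number. Beyond the fold limit and the smaller numbers of libraries, the cause was not tested. Members without counts were 4 in microglia replicate 8 (19.2 M counts), 2 in BMD MLCs replicate 3 (23.4 M), 1 in ER-Hoxb8 MLCs replicate 4 (22.8 M) and 0 in all others, down to 6.1 M.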
